A study of Mus musculus with 10 samples.

Results

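The HOX cluster genes were examined in lung tumors and liver metastases from a genetic model of small cell lung cancer in mice. Members were all genes whose symbol is Hoxa, Hoxb, Hoxc or Hoxd followed by a number, which gave 39 genes in 4 clusters among the 35214 gene symbols of the table. The HoxA cluster held 11 members (GRCm38, chr6:52155590-52260880), HoxB 10 (chr11:96194316-96368256), HoxC 9 (chr15:102921103-103036852) and HoxD 9 (chr2:74668310-74765142). RNA-seq was available as TPM, a length-corrected transcript level that sums to 1000000 in each library, for 10 libraries. RPR2 mice gave 3 lung tumors (mice JHK1373, JHK1394 and JHK1548) and 2 liver metastases (JHK1373 and JHK1394). RPR2;Nfibf/f mice gave 3 lung tumors (JHK997, JHK1398 and JHK1399) and 2 liver metastases (JHK1398 and JHK1399). Both groups share the RPR2 background, known for conditional deletion of Rb1, Trp53 and the Rb relative Rbl2, and RPR2;Nfibf/f mice in addition carry floxed alleles of Nfib, a transcription factor gene known for its role in metastasis of this cancer. The labels do not state the ages of the mice, the route of Cre or the floxed part of Nfib. Tumors were macrodissected from mice at morbidity, so each library is a bulk sample in which fewer cells of a type and less RNA per cell cannot be told apart.

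HOX genes encode homeodomain transcription factors that give cells their position along the head-to-tail axis of the embryo. They lie in clusters in which gene order follows the order of expression, so that low-numbered genes at the 3′ end are used early and toward the head and high-numbered genes at the 5′ end late and toward the tail. HOX proteins bind DNA with TALE cofactors (PBX, MEIS and PKNOX proteins), and Polycomb complexes keep the unused clusters silent. Adult lung keeps expression of a few HoxA and HoxB genes, and Hoxa5 is required for normal development of the lung.

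The sequences shown here belong to Hoxb8, the member whose level differed by the test described further on, with the promoter of Hoxb4, a HoxB gene further toward the 3′ end, for comparison. Of the HoxB genes, the promoter table used here held Hoxb8, Hoxb4 and Hoxb1. They are taken from RefSeq (GRCm38.p6) and run from 250 bases before to 50 bases after the gene start, on the plus strand, at chr11:96281655-96281954 for Hoxb8 and chr11:96318017-96318316 for Hoxb4. Capitals mark matches on either strand to the searched motifs.
Hoxb8: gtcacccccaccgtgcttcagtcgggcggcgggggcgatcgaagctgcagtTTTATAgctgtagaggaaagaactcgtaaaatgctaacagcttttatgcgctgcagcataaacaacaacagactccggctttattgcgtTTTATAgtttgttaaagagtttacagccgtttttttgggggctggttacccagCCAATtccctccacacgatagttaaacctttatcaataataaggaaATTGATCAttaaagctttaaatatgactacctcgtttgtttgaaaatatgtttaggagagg
Hoxb4: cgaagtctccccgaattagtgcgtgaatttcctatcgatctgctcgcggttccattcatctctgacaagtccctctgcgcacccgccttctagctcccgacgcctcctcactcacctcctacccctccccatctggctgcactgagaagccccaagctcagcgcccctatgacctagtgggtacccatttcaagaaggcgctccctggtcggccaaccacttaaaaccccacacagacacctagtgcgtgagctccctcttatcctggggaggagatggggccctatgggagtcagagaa
The motifs searched were the TATA box with the letters TATAAA, the CCAAT box with the letters CCAAT, an NFI site with the letters TTGGCA, a joint HOX and PBX site with the letters TGATNNAT and a HOX core with the letters TTAATT. The Hoxb8 window held the TATA box, the CCAAT box and the joint HOX and PBX site, and the Hoxb4 window held none of the motifs. Among all 32851 promoters of this length, 13.6% held the TATA box, 37.4% the CCAAT box, 8.85% the joint site, 14.1% the NFI site and 11.3% the HOX core. The promoter table held 24 promoters of 22 HOX symbols, and 3 of the 24 held the NFI site.

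Hoxb8 is also a known target of miR-196, whose gene Mir196a-1 lies inside the HoxB cluster between Hoxb13 and Hoxb9 (GRCm38.p6, chr11:96265187-96265208, plus strand). The mature RNA, from RefSeq, is shown with its seed (bases 2 to 8) in capitals, above the best matching site in the 3′ untranslated region of Hoxb8 (GENCODE M21), in which capitals mark Watson-Crick pairs and the lower-case base a G:U wobble.
mmu-miR-196a-5p: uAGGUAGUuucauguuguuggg
Hoxb8 site: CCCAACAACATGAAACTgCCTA
Of the 22 bases, 21 paired by Watson-Crick rules and the remaining base lay in the seed. The next best transcripts among the 39 HOX genes by total pairs, those of Hoxa4 and Hoxd8, paired at 15 of 22 bases. The best sites of Hoxa7, Hoxa9 and Hoxb7, also in 3′ untranslated regions, paired at 14 of 22 bases but matched the whole seed. MicroRNAs were not measured in these libraries.

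The libraries were first checked against their labels. The 12 neuroendocrine tumor markers all had a nonzero value in each of the 4 groups, though Neurod1 stayed at or below 0.23 TPM. A nonzero value does not set tumor apart from other tissue, since the 12 hepatocyte markers were also nonzero in each group. Nfib itself stood at 85.3, 28.3 and 118 TPM in RPR2 lung tumors, 62.8 and 643 TPM in RPR2 metastases (JHK1373 and JHK1394), 38.6, 38.0 and 26.5 TPM in RPR2;Nfibf/f lung tumors, and 46.1 and 41.3 TPM in RPR2;Nfibf/f metastases. Since the floxed part is not given, a gene-level TPM does not check the deletion. The summed level of 12 hepatocyte markers was 9330.5 and 9639 TPM in RPR2 metastases but 103 and 2793 TPM in RPR2;Nfibf/f metastases, and 98.3 to 1257 TPM in the 6 lung tumors. The RPR2;Nfibf/f metastasis of JHK1398 therefore had as little hepatocyte RNA as the lung tumors, and the fitted changes of HOX genes that include it are given with and without it.

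HoxB was the expressed cluster in every library. Summed over its 10 genes, HoxB stood at 229 to 681 TPM in RPR2 lung tumors, 618 to 1716 TPM in RPR2 metastases, 235 to 502 TPM in RPR2;Nfibf/f lung tumors and 536 to 691 TPM in RPR2;Nfibf/f metastases. HoxB supplied between 97.03% and 99.89% of all HOX TPM in each library. The HoxA sum did not exceed 5.84 TPM, and all 9 HoxC genes and all 9 HoxD genes stayed below 1 TPM in every library. The highest HoxC value was 0.474 TPM and the highest HoxD value 0.891 TPM. At most 11 and at least 8 HOX genes reached 1 TPM in a library.

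**Figure D1:**
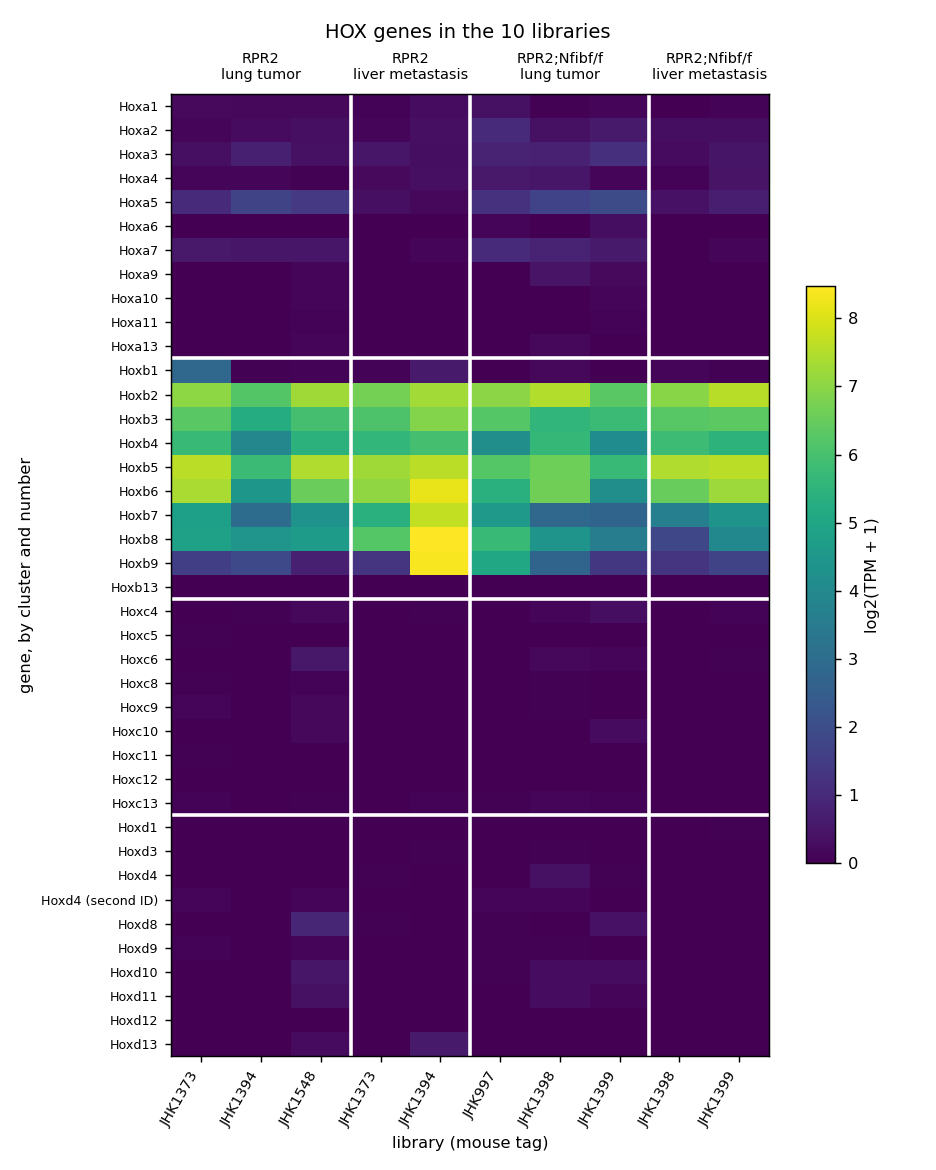
Level of each HOX gene (vertical axis, by cluster) in each of the 10 libraries (horizontal axis, by group), as log2(TPM + 1) on the color scale. The 8 genes Hoxb2 to Hoxb9 carry nearly all of the signal, and HoxC and HoxD stay below 1 TPM throughout.

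Within HoxB the expressed block ran from Hoxb2 to Hoxb9. Hoxb13, at the 5′ end and separated from Hoxb9 by 74.0 kb, was listed at 0 in all 10 libraries. Hoxb1, the gene of the hindbrain end of the cluster, was at 6.34 TPM in the RPR2 lung tumor of JHK1373 and at or below 0.532 TPM in the other 9 libraries. Hoxb1 was named after its values were seen, and its mean of 0.725 TPM was under the 1 TPM needed for testing. The same mouse's metastasis had 0.0474 TPM. Of all members, 9 passed the filter of a mean of at least 1 TPM and were tested: Hoxb2 to Hoxb9 and Hoxa5.

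The genes toward the 3′ end of the block were high everywhere and varied least. Hoxb2, a regulator of hindbrain identity, was at 129, 72.5 and 151 TPM in RPR2 lung tumors (117 ± 40.4, SD, n = 3), 104 and 157 TPM in RPR2 metastases (131 ± 37.0, n = 2), 128, 181 and 77.7 TPM in RPR2;Nfibf/f lung tumors (129 ± 51.5, n = 3), and 123 and 188 TPM in RPR2;Nfibf/f metastases (155 ± 45.8, n = 2). All 4 groups overlapped, and the highest library was 2.59 times the lowest. Hoxb3, another hindbrain gene, ranged from 36.7 to 119 TPM (3.24 times), with group means of 58.7 ± 21.0, 93.0 ± 36.4, 58.1 ± 14.7 and 78.5 ± 2.47 TPM in the same order of groups. Both lowest and highest Hoxb3 values came from mouse JHK1394, its lung tumor and its metastasis.

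The middle of the block, Hoxb4 to Hoxb6, varied more, and its low values fell in the same libraries. Hoxb4, known for expanding hematopoietic stem cells, was at 50.9, 14.1 and 42.0 TPM in RPR2 lung tumors, 48.0 and 62.3 TPM in RPR2 metastases, 17.3, 48.5 and 16.2 TPM in RPR2;Nfibf/f lung tumors, and 54.5 and 43.2 TPM in RPR2;Nfibf/f metastases. Hoxb5, a gene of lung and gut mesenchyme and neural crest derivatives, was at 193, 54.0 and 176 TPM, then 151 and 192 TPM, then 74.0, 96.0 and 51.9 TPM, then 176 and 193 TPM in the same order. Hoxb6 was at 168, 21.5 and 91.1 TPM, then 132 and 291 TPM, then 40.5, 98.5 and 17.3 TPM, then 89.8 and 150.5 TPM. The lung tumors of JHK1394, JHK997 and JHK1399 were the 3 lowest libraries for all 3 genes. The highest library exceeded the lowest 4.42-fold for Hoxb4, 3.72-fold for Hoxb5 and 16.8-fold for Hoxb6.

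**Figure D2:**
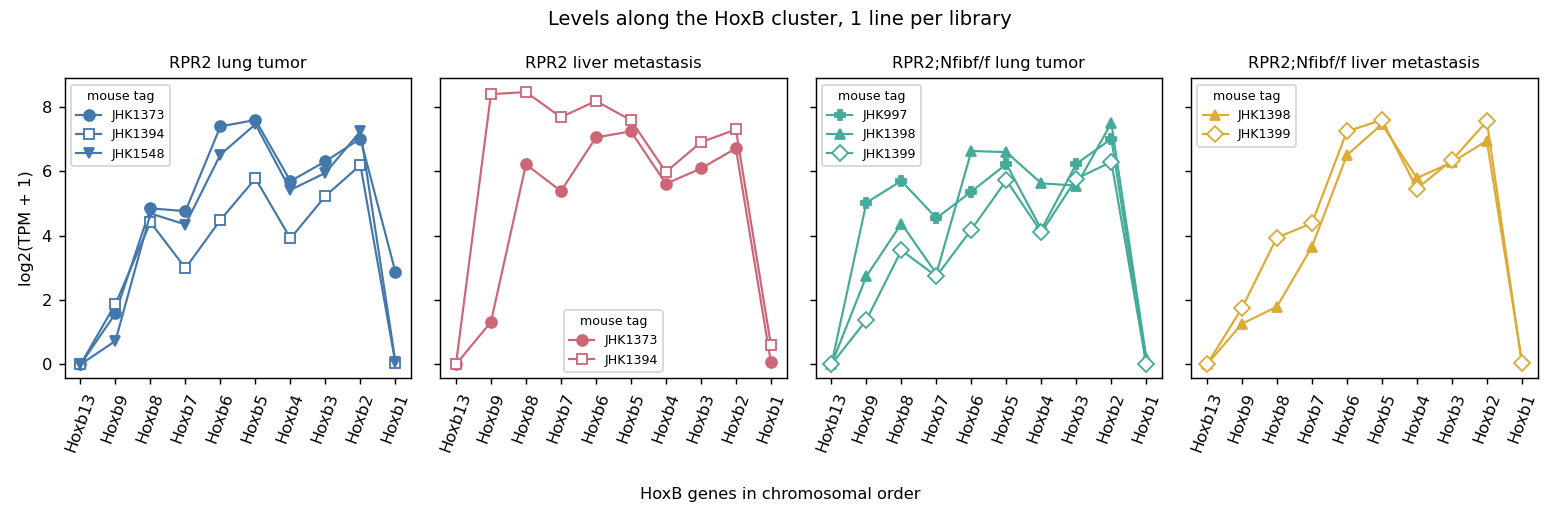
Level of the HoxB genes as log2(TPM + 1) (vertical axis) in their order along the chromosome (horizontal axis), with 1 panel per group and 1 line per library. Over the 10 libraries Hoxb2 and Hoxb3 vary least and Hoxb9 most, from 0.662 to 337 TPM, the top value being the metastasis of JHK1394. Within a group the spread does not always widen toward Hoxb9. In RPR2 lung tumors Hoxb6 runs from 21.5 to 168 TPM and Hoxb8 from 20.4 to 27.9 TPM.

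The 5′ end of the block, Hoxb7 to Hoxb9, varied most over the 10 libraries. Hoxb7 was at 26.2, 6.97 and 19.4 TPM in RPR2 lung tumors, 40.9 and 205 TPM in RPR2 metastases, 22.4, 6.06 and 5.69 TPM in RPR2;Nfibf/f lung tumors, and 11.6 and 19.9 TPM in RPR2;Nfibf/f metastases. Hoxb8, known for holding myeloid progenitors undifferentiated when overexpressed, was at 27.9, 20.4 and 24.9 TPM, then 73.6 and 353 TPM, then 51.2, 19.8 and 10.7 TPM, then 2.47 and 14.4 TPM. Hoxb9, a gene of the thoracic skeleton, was at 2.0, 2.68 and 0.662 TPM, then 1.5 and 337 TPM, then 31.7, 5.7 and 1.61 TPM, then 1.4 and 2.36 TPM. The metastasis of JHK1394 was the highest of the 10 libraries for all 3 genes. It exceeded the lowest library 36-fold for Hoxb7, 143-fold for Hoxb8 and 509-fold for Hoxb9. The second highest libraries stood at 40.9, 73.6 and 31.7 TPM, so the width of these ranges rested largely on that metastasis.

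The reach of expression toward the 5′ end differed between libraries. Taking 5 TPM as the limit, the most 5′ gene reached was Hoxb8 in 6 libraries, Hoxb9 in the metastasis of JHK1394 and the lung tumors of JHK997 and JHK1398, and Hoxb7 in the metastasis of JHK1398. Hoxb7, Hoxb8 and Hoxb9 together made up 52.1% of HOX TPM in the metastasis of JHK1394 (895 TPM) and 2.89% in the metastasis of JHK1398 (15.5 TPM). In the metastasis of JHK1394 Hoxb9 stood at 95.3% of the level of Hoxb8, whereas in the RPR2 metastasis of JHK1373 it stood at 2.04%. That library of JHK1394 also had the highest Nfib value, 643 TPM. Nfib was not alone in this, since other listed genes were highest there too. Examples were Psip1 (2392 TPM, at most 776 TPM elsewhere), Mllt3 (166 and 59.6 TPM) and Crabp1 (827 and 48.7 TPM). The lung tumor of JHK997, the next highest for Hoxb9, had the highest summed level of 12 fibroblast and mural markers, 2436 TPM against 282 to 987 TPM in the others. Whether these values bear on Hoxb9 was not tested.

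Between the liver metastases of the 2 genotypes, which asks how Nfib genotype relates to the metastases, Hoxb8 was the 1 member that passed the test, and it was lower in RPR2;Nfibf/f. Hoxb8 (ENSMUSG00000056648) lies at chr11:96281905-96285315 on the plus strand (GRCm38, GENCODE M21). Its mean was 213 ± 198 TPM in RPR2 metastases (n = 2) and 8.46 ± 8.47 TPM in RPR2;Nfibf/f metastases (n = 2), and the groups did not overlap. The fitted log2 change on log2(TPM + 1) was −4.47 ± 0.88 (SE), with an adjusted p of 0.0333 by limma with Benjamini-Hochberg adjustment over all 15503 genes. Thus 1 of 9 tested members fell and 0 rose, where 0.91% of all tested genes fell and 1.13% rose. The call rested on few libraries, since the adjusted p was 0.235 without the RPR2 metastasis of JHK1394 and 0.161 without the RPR2;Nfibf/f metastasis of JHK1398, with log2 changes of −3.35 and −3.40 (the lone library left in a group is assumed to vary like the other groups). It was also lost (adjusted p 0.0504 to 0.055) without any 1 of the 3 RPR2 lung tumors, which enter the shared estimate of spread, at 0.0779 with no filter on low levels, and at 0.241 when only the 2 groups were fitted. Over all 20 alternatives the adjusted p ran from 0.0219 to 0.241 and the log2 change from −5.60 to −3.35.

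Neighboring genes pointed the same way without passing. Hoxb7 did not pass, with a log2 change of −2.52 ± 0.86 (adjusted p 0.199, limma with Benjamini-Hochberg), and its groups, 40.9 and 205 TPM against 11.6 and 19.9 TPM, did not overlap. The Hoxb7 value was −1.37 without the RPR2 metastasis of JHK1394, −3.67 without that of JHK1373 and −2.15 without the RPR2;Nfibf/f metastasis of JHK1398. Hoxb9 had a log2 change of −3.35 ± 1.80 (adjusted p 0.504) with overlapping groups. Without the RPR2 metastasis of JHK1394 the Hoxb9 value was 0.18, and without that of JHK1373 it was −6.89 (adjusted p 0.0338, within 0.0338 to 1.0 over the alternatives). Without the RPR2;Nfibf/f metastasis of JHK1398 it was −3.11. Hoxb2 to Hoxb6 overlapped between genotypes. Among the 9 tested members, 1 was non-overlapping and higher (Hoxa5) and 2 were non-overlapping and lower (Hoxb7 and Hoxb8), against 23.8% and 22.0% of all tested genes. The median log2 change was −0.19 over the members and 0.0 over all genes. Beside the Hoxb8 difference, the hepatocyte marker sums differed as given above, with all 12 markers higher in both RPR2 metastases. So were 9 of 10 myeloid, 7 of 10 lymphoid, 7 of 12 fibroblast and mural and 6 of 10 endothelial markers. Also higher were 6 of 10 hematopoietic progenitor, 4 of 12 club and alveolar type 2 and 0 of 6 erythroid markers. In each of these lists at most 1 marker was lower in both. The progenitor sums were lower, at 77.1 and 71.4 TPM against 85.0 and 98.3 TPM. Without Kit they were higher, at 46.7 and 51.9 TPM against 32.5 and 40.1 TPM. The 12 neuroendocrine markers summed to 2661 and 4075 TPM in RPR2 metastases and 7824 and 61343 TPM in RPR2;Nfibf/f metastases, but without Calca (calcitonin) the sums overlapped, at 2116 and 2665 TPM against 2355 and 3814 TPM. Of these 12, 4 were higher in both RPR2;Nfibf/f metastases and 1 was lower. Their part in the result was not tested.

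**Figure D3:**
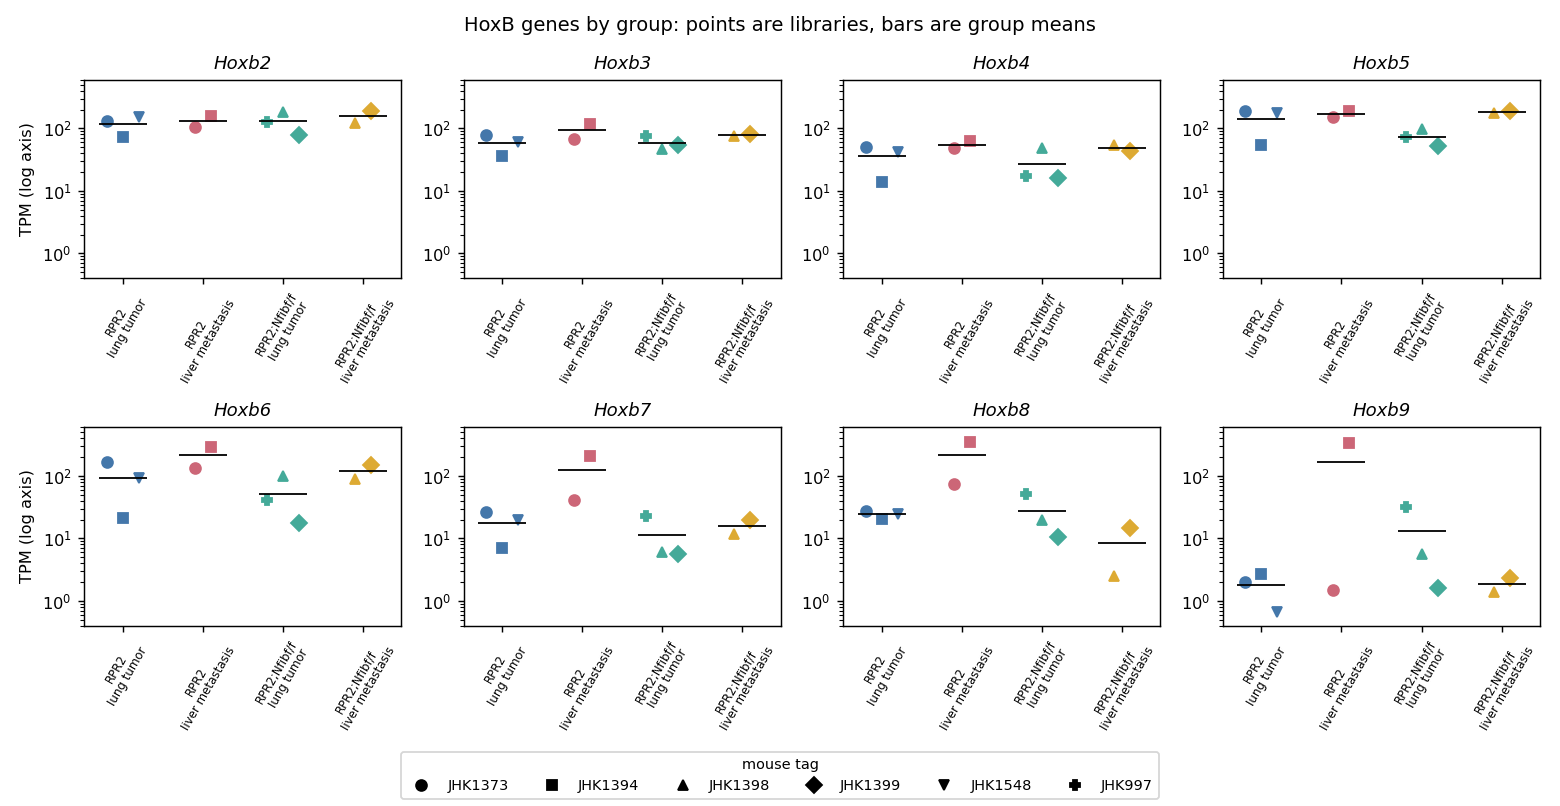
TPM (vertical axis, log scale) of each named HoxB gene by group, with 1 point per library and a bar at the group mean. For Hoxb8 both RPR2 metastases, at 73.6 and 353 TPM, lie above both RPR2;Nfibf/f metastases, at 2.47 and 14.4 TPM.

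Between the lung tumors of the 2 genotypes no member passed. With limma and Benjamini-Hochberg adjustment, 0 of 9 members were called and 0 had an unadjusted p under 0.05, where 0.0% of all genes were called and 7.93% had such a p. No member's groups were separate, against 14.5% of all genes (5.66% higher and 8.81% lower). Hoxb8 had a log2 change of −0.11 ± 0.72 (adjusted p 0.979) and took either sign, from −0.69 to 0.39, as single libraries were left out. The median change was −0.11 over the members and −0.10 over all genes.

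Between RPR2 metastases and RPR2 lung tumors no member passed. The fitted change was above 0 for 8 of 9 tested members, which are neighbors in 1 cluster, and the share of all genes above 0 was not counted. Within mouse JHK1373, Hoxb2 to Hoxb6 and Hoxb9 were lower in the metastasis, at 0.751 to 0.942 of the lung tumor. The limma fit called 0 of 9 members after Benjamini-Hochberg adjustment, where 5.61% of all genes were called (2.04% higher and 3.57% lower), and 3 members had an unadjusted p under 0.05 against 18.8% of all genes. Hoxb8 had a log2 change of 2.69 ± 0.81 (adjusted p 0.0857, limma with Benjamini-Hochberg), Hoxb7 2.50 ± 0.78 (adjusted p 0.0992) and Hoxb9 3.46 ± 1.65 (adjusted p 0.294). Both metastases were above all 3 lung tumors for Hoxb7 and Hoxb8 (15.1% of all genes), whereas for Hoxb9 the metastasis of JHK1373, at 1.5 TPM, lay among the lung tumors. Without the metastasis of JHK1394 the changes were 1.57 for Hoxb8 (adjusted p 0.549, within 0.0535 to 0.549 over the alternatives) and 1.35 for Hoxb7 (adjusted p 0.601, within 0.0616 to 0.601). The Hoxb9 value went from −0.08 without the metastasis of JHK1394 to 7.0 without that of JHK1373 (adjusted p 0.021, within 0.021 to 0.989 over the alternatives), so each of these libraries decided it. Hoxb6 had 1.48 ± 0.84 (adjusted p 0.394) with overlapping groups, and 0.92 without the metastasis of JHK1394. The median change was 0.79 over the members and −0.15 over all genes.

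Between RPR2;Nfibf/f metastases and lung tumors no member passed either. With limma and Benjamini-Hochberg adjustment 0 of 9 members were called, where 0.123% of all genes were, and 2 members had an unadjusted p under 0.05 against 9.39% of all genes. Hoxb5 was at 176 and 193 TPM in the metastases and 51.9 to 96.0 TPM in the lung tumors, a non-overlapping difference of 1.35 ± 0.50 on the log2 scale (adjusted p 0.434). Hoxb3 was also non-overlapping and higher (7.76% of all genes). Hoxb8 had a log2 change of −1.67 ± 0.81 (adjusted p 0.558), and Hoxb6 1.47 ± 0.84 (adjusted p 0.626). Without the metastasis of JHK1398 these changes were 1.42 for Hoxb5, −0.59 for Hoxb8 and 1.84 for Hoxb6, and without that of JHK1399 the Hoxb8 change was −2.75. The difference of the differences between genotypes was −4.36 ± 1.14 for Hoxb8 (adjusted p 0.188) and −5.01 ± 2.33 for Hoxb9 (adjusted p 0.539) by limma with Benjamini-Hochberg adjustment. Without the metastasis of JHK1398 these were −3.29 and −4.76. With single libraries left out the Hoxb9 value ran from −8.55 (without the metastasis of JHK1373) to −1.47 (without that of JHK1394). The same test called 0 of 9 members (1 with an unadjusted p under 0.05), where 0.581% of all genes were called (0.49% higher and 0.0903% lower) and 9.68% had such a p. The metastasis-minus-lung change of Hoxb8 was therefore not shown to differ by genotype.

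In the 4 mice with both tumors, Hoxb7 was the named HoxB gene that was higher in the metastasis in every mouse, at 1.56, 29.4, 1.92 and 3.5 times the lung tumor in JHK1373, JHK1394, JHK1398 and JHK1399. The ratios of the other 7 took both directions. Hoxb7 was singled out after all 8 were seen, and its pattern was not tested. In JHK1394 all 8 named HoxB genes were higher in the metastasis, from 2.16-fold for Hoxb2 to 125-fold for Hoxb9. JHK1399 also had higher values for all 8, from 1.35-fold for Hoxb8 to 8.68-fold for Hoxb6. JHK1373 had ratios of 0.751 to 0.942 for Hoxb2 to Hoxb6 and Hoxb9, and 2.64 for Hoxb8. In JHK1398 Hoxb8 was at 0.124 and Hoxb9 at 0.245 of the lung tumor, whereas Hoxb5 was at 1.84.

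**Figure D4:**
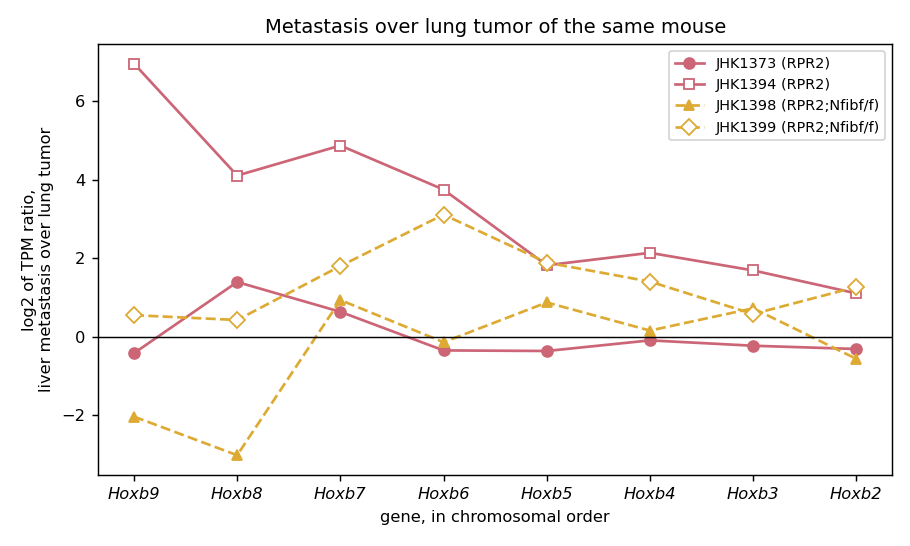
Ratio of metastasis to lung tumor TPM, drawn as its log2 (vertical axis), for each named HoxB gene in each of the 4 mice with both tumors. Hoxb7 is higher in the metastasis in all 4 mice, whereas the ratio of Hoxb8 runs from 0.124 to 17.3.

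Hoxa5 (ENSMUSG00000038253, chr6:52201754-52204587, minus strand), a regulator of lung development, was the only tested gene outside HoxB and was described after its values were seen. It was at 1.06, 2.34 and 1.65 TPM in RPR2 lung tumors (1.68 ± 0.642, n = 3), 0.281 and 0.145 TPM in RPR2 metastases (0.213 ± 0.096, n = 2), 1.29, 2.28 and 2.82 TPM in RPR2;Nfibf/f lung tumors (2.13 ± 0.774, n = 3), and 0.343 and 0.63 TPM in RPR2;Nfibf/f metastases (0.487 ± 0.203, n = 2). All 6 lung tumors lay above all 4 metastases. The metastasis stood at 0.266, 0.0621, 0.151 and 0.224 of the lung tumor of the same mouse in JHK1373, JHK1394, JHK1398 and JHK1399. The log2 changes were −1.12 ± 0.45 in RPR2 (adjusted p 0.204) and −1.05 ± 0.45 in RPR2;Nfibf/f (adjusted p 0.504), by limma with Benjamini-Hochberg adjustment. At these low levels the size depended on the pseudocount, and with 0.1 in place of 1 the changes were −2.48 and −1.90. Without the metastasis of JHK1398 the RPR2;Nfibf/f change was −0.91. Its groups were separate and lower in both, where 31.0% and 14.8% of all genes were so. Hoxa5 passed the filter of a mean of at least 1 TPM only through the lung tumors. The filter thus favored a lower level in the metastases, and the separation is given as a description only. Hoxa7, which was under the filter and named after its values were seen, was at 0.414 to 1.02 TPM in the lung tumors and at or below 0.0802 TPM in the metastases. Other HoxA genes did not share this order: Hoxa2 and Hoxa3 overlapped, and Hoxa4 was at 0.159 and 0.265 TPM in RPR2 metastases and 0.0414 to 0.106 TPM in RPR2 lung tumors.

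Some markers of cells of the lung were separated between lung tumors and metastases as well. The sum of 12 club and alveolar type 2 markers was 2511 to 68617 TPM in the lung tumors and 39.8 to 259 TPM in the metastases, with 1 of the 12 at 0 in RPR2;Nfibf/f metastases, and 10 of the 12 were higher in all lung tumors than in any metastasis. The 12 fibroblast and mural markers summed to 513 to 2436 TPM and 282 to 411 TPM, but without Mgp (matrix Gla protein) the sums overlapped, at 168 to 964 TPM and 250 to 371 TPM, and 2 of the 12 were separate. The 10 endothelial markers summed to 87.3 to 169.8 TPM and 56.7 to 83.7 TPM, but without Erg to 77.0 to 163 TPM and 52.4 to 82.2 TPM, and 3 of the 10 were separate. The 10 lymphoid markers summed to 98.0 to 686 TPM and 4.89 to 54.6 TPM, with 1 of the 10 at 0 in RPR2;Nfibf/f metastases and 1 of the 10 separate. Their part in the Hoxa5 difference was not tested.

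**Figure D5:**
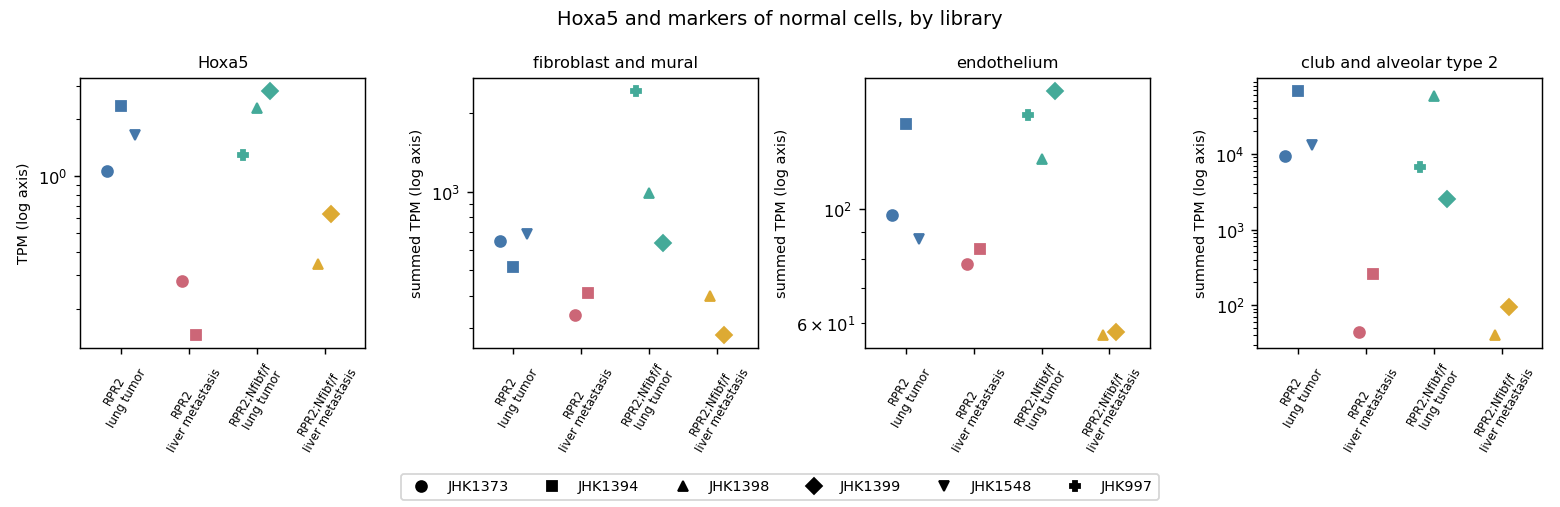
TPM of Hoxa5 and summed TPM of marker lists (vertical axes, log scale) in the 10 libraries by group. Hoxa5 lies at 1.06 to 2.82 TPM in the 6 lung tumors and at 0.145 to 0.63 TPM in the 4 metastases.

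The listed TALE, Polycomb, Trithorax and H3K27 demethylase genes all passed the filter of a mean of at least 1 TPM. All 9 TALE cofactor genes were tested and 0 were called in any of the 5 comparisons by limma. An unadjusted p under 0.05 was seen for 2 of 9 between lung tumors of the genotypes, where 7.93% of all genes had one, for 2 of 9 between RPR2;Nfibf/f metastases and lung tumors (9.39% of all genes), and for 0 in the other comparisons. Meis2, which binds DNA with HOX proteins, was at 176 to 673 TPM, whereas Meis1 was at 0.27 to 5.42 TPM. Of 32 Polycomb genes and of 20 Trithorax and H3K27 demethylase genes, all tested, 0 were called by limma in any comparison. Between lung tumors of the genotypes 3 of the 32 and 4 of the 20 had an unadjusted p under 0.05, where 7.93% of all genes had one. The Polycomb genes had 3 of 32 between metastases of the genotypes (12.8% of all genes) and 3 of 32 between RPR2 metastases and lung tumors (18.8%). The Trithorax and H3K27 demethylase genes had 1 of 20 between RPR2;Nfibf/f metastases and lung tumors (9.39%). Both lists had 0 in their remaining comparisons. Meis1, Meis2 and Ezh2 were named after their values were seen. Ezh2, the H3K27 methyltransferase of Polycomb complex 2, was at 125 ± 53.9 TPM in RPR2 lung tumors and 243 ± 40.1 TPM in RPR2 metastases, and its log2 change of 1.05 ± 0.40 did not pass (adjusted p 0.173, limma with Benjamini-Hochberg). The 6 CDX and ParaHox genes, relatives of the HOX genes, were all under the filter. Of 18 retinoic acid genes, 14 were tested. Aldh1a3, which makes retinoic acid, was at 143, 186 and 23.5 TPM in RPR2 lung tumors, 1.51 and 1.73 TPM in RPR2 metastases, 105, 42.6 and 51.8 TPM in RPR2;Nfibf/f lung tumors, and 85.4 and 105 TPM in RPR2;Nfibf/f metastases. It fell in RPR2 metastases against lung tumors (−5.06 ± 0.74, adjusted p 0.00426) and was higher in RPR2;Nfibf/f than RPR2 metastases (5.20 ± 0.81, adjusted p 0.0105, both by limma with Benjamini-Hochberg), and the difference between these differences passed as well (5.67 ± 1.04, adjusted p 0.0437). The other 13 tested retinoic acid genes were not called. This gave 1 of 14 in each of these comparisons, where 3.57% of all genes fell in the first, 1.13% rose in the second and 0.49% rose in the difference. Of 31 genes flanking the clusters, 23 were tested and 1 was called, Nfe2l1, a stress-response factor gene next to HoxB, which fell in RPR2 metastases against lung tumors (−1.20 ± 0.30, adjusted p 0.0438, limma with Benjamini-Hochberg). A count of 1 in 23 is near the 3.57% of all genes that fell in that comparison.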

How the data were processed

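RNA was measured in 10 libraries. The authors deposited 1 table of TPM for 35288 rows (35214 symbols; Hoxd4 has 2 rows). The submitters' processing notes name Salmon 0.12.0, bcl2fastq 2.20, R 4.1.0 and the build GRCm38. Per the labels' protocols, polyA RNA was used. TPM keeps no depth, so depth is unknown and no counting error can be given, and the labels do not state use of strand, so Hoxb2, Hoxb3, Hoxb5 and Hoxb6 and their overlapping antisense genes cannot be told apart.

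The values were analysed as log2(TPM + 1), with a pseudocount of 1, over 15503 rows with a mean of at least 1 TPM, by limma 3.58.1 in R 4.3.3 with 4 groups in 1 fit and Benjamini-Hochberg adjustment at 0.05. Fold changes on this scale understate the change of low genes. Libraries of 1 group come from different mice, per the labels. Libraries of 1 mouse were treated as independent. The mouse tags pair lung tumor and metastasis of 4 mice, and the deviations from the group means of the paired libraries correlated across genes at −0.023, −0.008, 0.043 and 0.049. Named genes are members called in any comparison or with a group mean of at least 5 TPM (Hoxb2 to Hoxb9). Hoxa5, Hoxa7, Hoxb1, Meis1, Meis2, Ezh2, Psip1, Mllt3, Crabp1 and Skap1 were added after their values were seen. Members and lists were chosen with earlier results of these data known. Alternatives changed the pseudocount, filter, scaling, samples and block. Of the 22 HOX cluster noncoding genes on the list, 0 matched a symbol among the deposited rows, so they could not be analysed.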

Additional observations from a re-analysis of the deposited data

How the results depend on the processing

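The count of HOX genes called between the liver metastases of the 2 genotypes, 1, was 0 with no filter on low values, 0 when only the 2 groups were fitted and 0 without the lung tumors of JHK1394 and JHK1398, and ranged from 0 to 2 as single libraries were left out (2 without the RPR2 metastasis of JHK1373, Hoxb8 and Hoxb9). The count between RPR2 metastases and lung tumors, 0, ranged from 0 to 1 (Hoxb9, without the RPR2 metastasis of JHK1373). Other counts were the same under every alternative run. With single libraries left out the log2 change of Hoxb8 between lung tumors ranged from −0.69 to 0.39, that of Hoxb9 between metastases of the 2 genotypes from −6.89 to 0.18, and that of Hoxb9 between RPR2 metastases and lung tumors from −0.08 to 7.0. With the mouse as a random replicate block the Hoxb8 change between metastases was −4.45 (adjusted p 0.0335, limma), and as a fixed block its RPR2 metastasis-minus-lung change was 2.71 (adjusted p 0.148), and neither block changed a call of a HOX gene. The fixed block allows no comparison of genotypes within a tissue. It does allow the difference of the differences, which was −3.8 ± 1.19 for Hoxb8 (adjusted p 0.333, limma). With a pseudocount of 5 the Hoxa5 metastasis-minus-lung changes were −0.35 in RPR2 and −0.37 in RPR2;Nfibf/f. The median over all genes of the RPR2 metastasis-minus-lung change, −0.154, was 0.051 with quantile normalization and 0.091 with median centring, and with quantile normalization 407 genes rose and 408 fell, against 316 and 553. The cause of these changes was not tested. Depth is unknown, and genes with a mean below 1 TPM were not tested.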

Other observations

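Skap1, an adaptor gene of T-cell signaling that lies next to the HoxB cluster, was at 7.44 TPM in the RPR2 metastasis of JHK1373 and at 40.7 to 159.6 TPM in the other 9 libraries. It was named after its values were seen, and limma called it in none of the comparisons.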
